A study of Daucus carota with 18 samples.

Results

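The 3 carrot genes followed here, DCAR_019886, DCAR_019908 and DCAR_009660, are those that the study's tables of transcription factors describe as homologs of ALTERED PHLOEM DEVELOPMENT (APL). They are 3 of the 32113 genes counted in the files, and the description rests on the best protein match of each gene to an Arabidopsis entry. The tables hold 71 factors that differed the same way between outer and inner phloem in every set of roots, and the homologs stand in its block of 15 factors lower in outer phloem. The tissue difference in these same libraries therefore chose them. It is given below as a description and supports nothing, whereas the differences between sets of roots did not enter the choice and were tested.

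RNA was sequenced from 18 libraries, 1 for each tissue of 9 field-grown roots (Daucus carota). The outer phloem, which was purple (POP), and the inner phloem, which was not (NPIP), were dissected from every root, and there were 3 roots from separate plants in each set (dP1, dP2 and pP). Roots of dP1 and dP2 were dark purple, with high anthocyanin in the outer phloem, and roots of pP were pale purple, with low anthocyanin. The roots of dP1 and pP belonged to the same family, were grown at El Centro, California, and had non-purple xylem. Those of dP2 belonged to a sibling family, were grown at Hancock, Wisconsin, and had purple xylem, so family, site and xylem colour cannot be told apart where dP2 is compared. Against pP, outer phloem anthocyanin differs along with them and cannot be told apart either. Library totals ranged from 6918267 to 9133313 expected counts. As a check of the tissue labels, DFR and LDOX, which encode late enzymes of anthocyanin synthesis, were higher in every POP library than in any NPIP library of the same set, while the ranges of CHS and of DcMYB7 overlapped between the tissues of dP1. The study lists all of these genes as higher in POP in the same libraries, so the check is not independent.

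In Arabidopsis, APL is a MYB coiled-coil transcription factor needed for the identity of phloem conducting cells. Without it, sieve elements and companion cells do not form properly, and cells with xylem features appear at phloem positions. Sieve elements carry sugars along the root, companion cells sustain them, and most of the phloem of a carrot storage root is parenchyma that stores those sugars. Whether each carrot gene has the role of the Arabidopsis gene is not known from these data.

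A pair of the homologs lies close together on chromosome 6. In the carrot assembly v2.0, DCAR_019908 lies at chromosome 6, 35858709 to 35860309, and DCAR_019886 at 36007805 to 36009520, so 147495 bp separate them. DCAR_009660 lies on chromosome 3, at 9779706 to 9781579. Their coding lengths in the files were 1029, 1152 and 1098 bases in the same order. RSEM can share out a read between similar genes, yet the count of each homolog was a whole number in all 18 libraries. Over all libraries DCAR_019886 had 1366 reads, DCAR_009660 had 1243 and DCAR_019908 had 508.

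DCAR_019886 was read in every library. Its level in CPM, the reads of a gene scaled to the size of the library and normalized by TMM, was 12.3, 10.2 and 12.8 in the NPIP of dP1 and 0.789, 0.779 and 1.22 in the POP, in the order of replicates 1 to 3. In pP it was 6.96, 5.88 and 4.01 in NPIP and 0.400, 2.01 and 1.25 in POP. In dP2 it was 27.9, 36.1 and 24.8 in NPIP and 3.86, 4.84 and 1.56 in POP. Within every set the lowest NPIP library was above the highest POP library, and the 3 NPIP libraries of dP2 were the highest of all 18.

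DCAR_009660 had a similar spread of levels. In dP1 its CPM was 4.42, 10.2 and 7.86 in NPIP and 0.394, 2.45 and 0.853 in POP. In pP it was 4.29, 3.99 and 7.30 in NPIP and 0.133, 1.34 and 1.25 in POP, where the lowest value came from 1 read. In dP2 it was 20.4, 39.95 and 25.4 in NPIP and 2.65, 6.62 and 3.24 in POP. The tissues did not overlap within any set, and replicate 2 of dP2 was the highest library in NPIP and also in POP.

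DCAR_019908 was the least abundant and was close to absent from the outer phloem of dP1 and pP. Its reads numbered 24, 48 and 65 in the NPIP of dP1 against 0, 7 and 1 in the POP. In pP they numbered 17, 14 and 27 in NPIP against 0, 0 and 1 in POP. In dP2 they numbered 115, 93 and 72 in NPIP against 9, 7 and 8 in POP. The 3 libraries without a read were all POP, and every POP library of dP2 had more CPM than any POP library of the other sets.

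**Figure D1:**
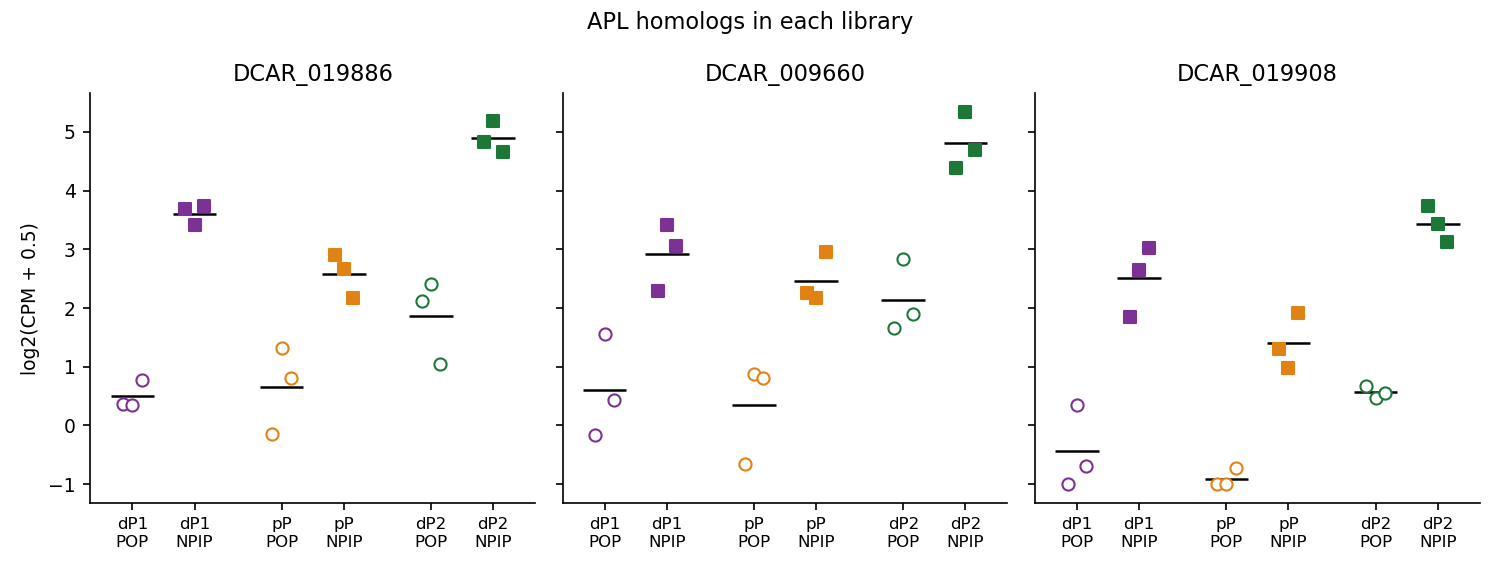
Level of each APL homolog in every library, as log2 of CPM plus 0.5, by set and tissue. Open circles are POP, filled squares are NPIP, and horizontal lines are means of the 3 plotted values. NPIP squares lie above the POP circles of the same set in all 3 panels, and the NPIP of dP2 is highest.

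In the mean of the 3 roots, DCAR_019886 ranked dP2 NPIP (29.6 ± 5.84 CPM, SD, n = 3), dP1 NPIP (11.8 ± 1.40), pP NPIP (5.62 ± 1.49), dP2 POP (3.42 ± 1.68), pP POP (1.22 ± 0.805) and dP1 POP (0.929 ± 0.251). Neighbours in this order overlapped from pP NPIP downwards. DCAR_009660 ranked dP2 NPIP (28.6 ± 10.2 CPM), dP1 NPIP (7.48 ± 2.90), pP NPIP (5.19 ± 1.83), dP2 POP (4.17 ± 2.14), dP1 POP (1.23 ± 1.08) and pP POP (0.908 ± 0.672). Its libraries overlapped between dP1 NPIP and pP NPIP, between pP NPIP and dP2 POP, and between dP1 POP and pP POP. DCAR_019908 followed the same order as DCAR_009660, from 10.5 ± 2.36 CPM in dP2 NPIP and 5.50 ± 2.27 in dP1 NPIP to 2.24 ± 0.936 in pP NPIP and 0.979 ± 0.0986 in dP2 POP, with overlap between dP1 NPIP and pP NPIP and between dP1 POP and pP POP. The NPIP of dP2 overlapped no other group for any homolog.

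Levels of different genes were compared per length, as TPM, which scale the reads of a gene by its length and by the library. In the NPIP of dP2, DCAR_019886 reached 25.5 TPM and DCAR_009660 reached 25.9 TPM, which was above 78.5% and 78.7% of the 32113 genes, while DCAR_019908 reached 10.3 TPM, above 64.4%. In the POP of pP the same genes stood at 1.10, 0.867 and 0.037 TPM. DCAR_019908 was the lowest of the homologs in 8 of 9 NPIP libraries and in 8 of 9 POP libraries. Neither of the others led throughout, as DCAR_019886 had the highest TPM in 10 libraries and DCAR_009660 in 8. In NPIP, DCAR_019908 made up 23.3% ± 5.94 of the summed TPM of the 3 homologs in dP1 (SD, n = 3), 18.2% ± 5.25 in pP and 17% ± 5.14 in dP2, which differed by about the spread between roots.

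Within each root, the inner phloem had more reads of every homolog than the outer phloem, in 9 of 9 roots. For DCAR_019886 the ratio of NPIP to POP CPM had a median of 10.5 over the roots and ranged from 2.93 to 17.4. For DCAR_009660 the median was 7.68 and the range 2.98 to 32.2, where the highest ratio rests on 1 POP read and has an exact 95% interval from 5.42 to 1304. For DCAR_019908 the 6 roots with a POP read ranged from 7.37 to 62.6. In the other 3 roots, with 3 POP reads set in place of 0, the ratio was 7.91 in dP1 root 1, 4.92 in pP root 1 and 3.66 in pP root 2. These 3 values leave out the counting error of the NPIP reads and are not lower limits like those of the intervals. The intervals cover counting error alone. Since the tissues of a set did not overlap for any homolog, NPIP stays higher however the libraries are matched into roots, which matters in pP, where libraries with the same number did not all deviate together.

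**Figure D2:**
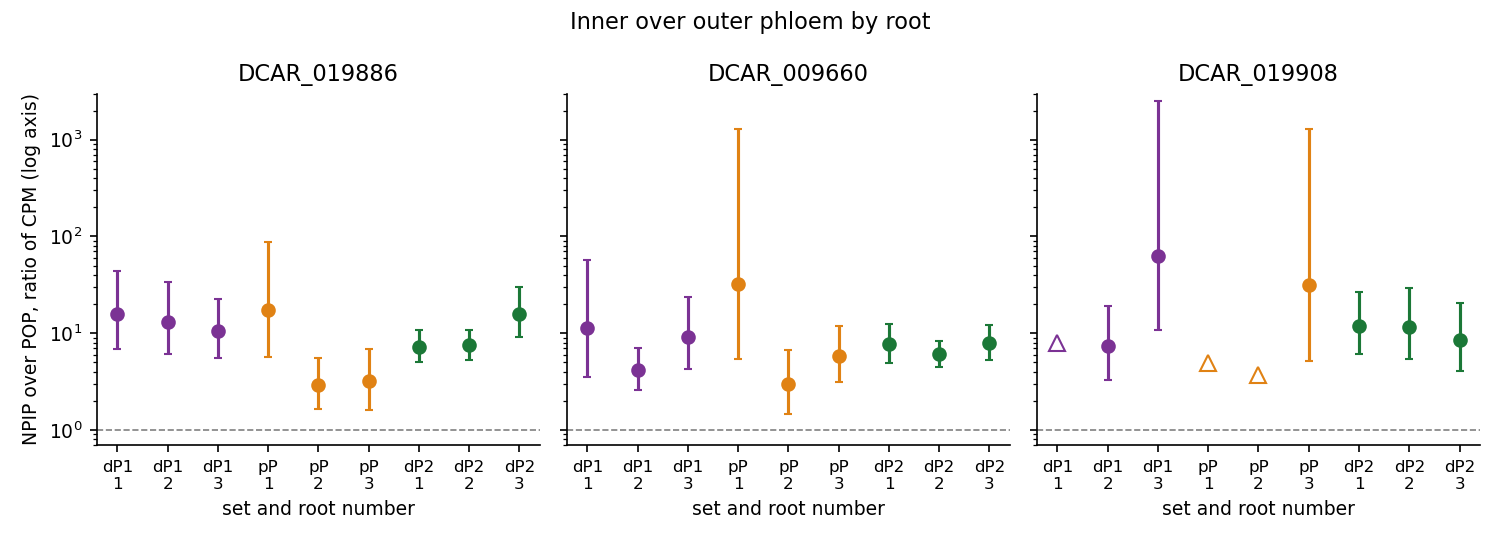
Ratio of NPIP to POP CPM of each homolog in each root, on a log axis, with exact 95% counting intervals. Open triangles are roots without a POP read, with the ratio taken against 3 POP reads, and the dashed line marks equal levels. The triangles leave out the counting error of the NPIP reads and are not lower limits. Every point lies above the line, and the widest intervals belong to roots with 1 POP read.

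Summed over the homologs, the inner phloem held 19.9 to 28.3 CPM in dP1, 11.3 to 14.6 in pP and 58.4 to 86.3 in dP2. The outer phloem held 1.18 to 4.01, 0.534 to 3.35 and 5.76 to 12.3 CPM. The POP libraries of dP2 were above every POP library of the other sets, and the highest of them overlapped the NPIP of pP. The ratio of NPIP to POP of the sum ranged from 6.51 to 16.8 in dP1, from 6.996 to 10.1 in dP2 and from 3.39 to 24.8 in pP, so the roots of pP spanned more than those of either dark set. Replicate 1 of the pP POP, with 4 reads of the 3 homologs together, set the highest of these ratios, and its total of 7754153 expected counts lies within the range of the others. In bulk tissue, fewer cells of a type and less RNA per cell cannot be told apart.

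The fitted tissue differences, which chose these genes, were large in each set. In dP1 the log2 fold change (log2FC) of POP over NPIP was −3.62 (SE 0.34) for DCAR_019886, −4.05 (SE 0.86) for DCAR_019908 and −2.55 (SE 0.64) for DCAR_009660, beside a median of 0.00 over the genes tested. In dP2 it was −3.11 (SE 0.42), −3.39 (SE 0.31) and −2.78 (SE 0.44) in the same order. In pP it was −2.17 (SE 0.56), −5.35 (SE 0.85) and −2.47 (SE 0.69). At a false discovery rate (FDR) under 0.05, by edgeR's quasi-likelihood test with Benjamini-Hochberg adjustment, 3 of 3 were lower in the POP of dP1, 3 of 3 in dP2 and 1 of 3 in pP, beside 7.41%, 3.66% and 1.35% of all genes tested. The homologs that did not pass in pP were DCAR_019886 (FDR 0.0725) and DCAR_009660 (FDR 0.0879). Both had FDR of 0.00328 to 0.0296 with DESeq2, the likelihood ratio test or 1 fit of all 18 libraries. Since the genes were listed for this difference in these libraries, the counts are not independent evidence of its direction.

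Single libraries mattered to these calls. In pP, the value of DCAR_019908 rests on 1 POP read against 58 NPIP reads, a ratio of CPM of 54.0 with an exact 95% interval from 9.32 to 2169. Exact intervals of ratios between groups, here and below, pool the reads of 3 roots. They cover counting error alone and leave out the spread between roots. Its FDR of 0.019 rose to between 0.0588 and 0.074 when replicate 1 or 3 of either tissue was left out. In dP1, DCAR_009660 had an FDR of 0.0571 to 0.119 without 1 NPIP replicate, whichever it was, or without POP replicate 1 or 3, and DCAR_019908 one of 0.0516 to 0.0794 without POP replicate 1 or 3 or NPIP replicate 3. In dP2, DCAR_009660 had an FDR of 0.062 without POP replicate 3.

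Between sets, the homologs were compared within 1 tissue, which did not enter their choice. In the inner phloem, all 3 were higher in dP2 than in pP, DCAR_019886 by a log2FC of 2.39 (SE 0.43, FDR 0.000708), DCAR_009660 by 2.46 (SE 0.60, FDR 0.00602) and DCAR_019908 by 2.22 (SE 0.61, FDR 0.011). Their 3 libraries of dP2 lay above the 3 of pP in each case. The same comparison called 18.9% of all genes tested higher in dP2, so such a difference between these sets was common. These 3 calls held in each of the 12 alternatives run for each gene, where the FDR stayed at or below 0.0427.

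Against dP1, the inner phloem of dP2 had more DCAR_019886 (log2FC 1.33, SE 0.41, FDR 0.0185) and more DCAR_009660 (log2FC 1.93, SE 0.59, FDR 0.0175). DCAR_019908 had a log2FC of 0.93 (SE 0.58, FDR 0.213), although its 3 libraries of dP2 lay above those of dP1. Of all genes tested, 22.4% were higher in dP2. The call of DCAR_019886 was lost without dP1 NPIP replicate 2 (FDR 0.0602) and that of DCAR_009660 without dP1 NPIP replicate 1 (FDR 0.0727), and without dP2 NPIP replicate 2, where both are highest, neither passed (FDR 0.0659 and 0.0692).

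Between dP1 and pP, which share the growing site, the inner phloem gave no call for any homolog. The log2FC of dP1 over pP was 1.06 (SE 0.42, FDR 0.161) for DCAR_019886, 1.29 (SE 0.60, FDR 0.237) for DCAR_019908 and 0.53 (SE 0.59, FDR 0.674) for DCAR_009660. All libraries of dP1 were above those of pP for DCAR_019886 alone. Of all genes tested, 2.08% were higher in dP1. Before adjustment, 2 of the 3 had a p under 0.05 (0.0222 for DCAR_019886 and 0.0472 for DCAR_019908), and DESeq2 and the likelihood ratio test called 0.

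In the outer phloem the counts were low, and the set differences rest on few reads. Over the 3 libraries of a group, DCAR_019886 had 83 reads in dP2, 23 in dP1 and 30 in pP, DCAR_009660 had 101, 32 and 23, and DCAR_019908 had 24, 8 and 1. All 3 were higher in the POP of dP2 than in that of pP, with a log2FC of 1.47 for DCAR_019886 (SE 0.47, FDR 0.0265) and 2.16 for DCAR_009660 (SE 0.67, FDR 0.0238). For DCAR_019908 the FDR was 0.00648, and its 24 reads against 1 give a ratio of CPM of 24.1 with an exact 95% interval from 3.92 to 989.5. Of all genes tested, 17.6% were higher. In a fit of these 6 libraries alone, DCAR_019886 (FDR 0.146) and DCAR_009660 (FDR 0.0669) did not pass, and DCAR_019908 had too few reads to be tested. DCAR_019908 thus entered the fit of all 18 libraries through its NPIP reads. DCAR_019886 no longer passed without pP POP replicate 1 or 3 or dP2 POP replicate 1 or 2 (FDR 0.0656 to 0.117), and DCAR_009660 without pP POP replicate 1 (FDR 0.073) or dP2 POP replicate 2 (FDR 0.108).

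Against the POP of dP1, the POP of dP2 had more DCAR_019886 (log2FC 1.86, SE 0.48, FDR 0.00855). DCAR_009660 had a log2FC of 1.72 (SE 0.65, FDR 0.0527) and DCAR_019908 one of 1.60 (SE 0.75, FDR 0.114), while 18.8% of all genes tested were higher in dP2. Without dP1 POP replicate 2, the dP1 outer phloem library with the most reads of both genes, they passed with FDR of 0.0158 and 0.00864, and DCAR_009660 also passed without dP2 POP replicate 1 (FDR 0.0469). Between the POP of dP1 and of pP no homolog passed, with log2FC of −0.39 (SE 0.51), 0.44 (SE 0.70) and 2.58 (SE 1.14) for DCAR_019886, DCAR_009660 and DCAR_019908. The last is a ratio of 7.92 from 8 reads against 1 (exact 95% interval 1.06 to 351). That interval pools the roots, and 7 of the 8 reads came from dP1 POP replicate 2. There 0.676% of all genes tested were higher. Before adjustment DCAR_019908 had a p of 0.0384, and DESeq2 and the likelihood ratio test called 0.

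**Figure D3:**
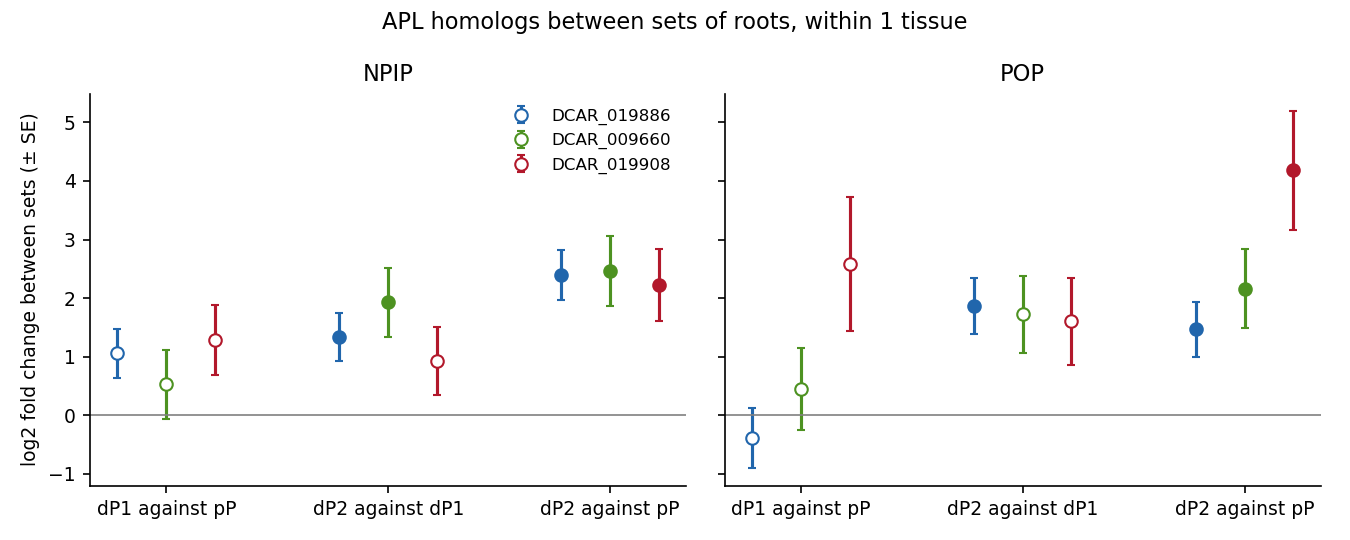
Log2 fold change of each homolog between sets of roots, in NPIP at left and in POP at right, with SE, from 1 fit of all 18 libraries. Filled points have an FDR under 0.05. The 6 points of dP2 against pP are filled, and no point of dP1 against pP is.

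The difference between tissues was also compared between sets. The genes were listed for being lower in the POP of every set, so the values compared here entered their choice, likeness between sets was favoured beforehand, and the result is given as a description. No homolog passed in any of the 3 comparisons, in edgeR, DESeq2 or the likelihood ratio test. For dP2 against dP1 the change in the POP over NPIP log2FC was 0.53 (SE 0.61) for DCAR_019886, 0.67 (SE 0.91) for DCAR_019908 and −0.21 (SE 0.91) for DCAR_009660. For dP2 against pP it was −0.92 (SE 0.63), 1.96 (SE 1.17) and −0.30 (SE 0.93). For dP1 against pP it was −1.45 (SE 0.66), 1.28 (SE 1.18) and −0.09 (SE 0.98), and DCAR_019886 had the only unadjusted p under 0.05, 0.043, with an FDR of 1. Of all genes tested, 2.42%, 1.11% and 0.0148% passed in the same order. The errors of 0.61 to 1.18 limit the size of change that could be detected.

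The homologs rose and fell together across groups. Over the 18 libraries, Pearson's r of log2 CPM was 0.916 between DCAR_019886 and DCAR_019908, 0.922 between DCAR_019886 and DCAR_009660 and 0.935 between DCAR_019908 and DCAR_009660. These points share their tissues and sets, and the pair on chromosome 6 was not the most alike. The genes were listed for being lower in the POP of every set, so a high r over both tissues was favoured beforehand. Within NPIP, r was 0.84, 0.842 and 0.873 in the same order, and within POP 0.588, 0.802 and 0.851. After the group means were removed, r was −0.09, 0.434 and 0.621 in the same order. These values describe libraries of 6 groups and were not tested.

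Other genes with a pattern like that of the homologs were ranked by the same r, among the 11764 genes whose log2 CPM averaged at least 3. DCAR_009780 was the most alike to DCAR_019886 (r = 0.968) and to DCAR_019908 (r = 0.955), and its mean was 58.8 CPM in the NPIP of dP2, 33.0 in that of dP1 and 11.5 in that of pP, against 4.29, 1.91 and 1.87 in POP. DCAR_031792 led for DCAR_009660 (r = 0.956) and was second for DCAR_019886 (r = 0.960), with 147 CPM in the NPIP of dP2 and 12.9 in the POP. DCAR_009958 was among the 5 most alike of every homolog, at r of 0.936 to 0.948. The other genes among these 5 were DCAR_030909 and DCAR_012061 for DCAR_019886, DCAR_006066, DCAR_008493 and DCAR_003788 for DCAR_019908, and DCAR_012545, DCAR_030909 and DCAR_008150 for DCAR_009660. None of them is described in the tables used here. Of the 100 genes most alike to each homolog, 46 were shared by all 3 homologs, which the choice of the homologs for 1 shared tissue difference favoured. With a prior count of 0.5 in place of 2, 5, 3 and 5 of the 5 genes remained for DCAR_019886, DCAR_019908 and DCAR_009660.

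DCAR_003788 had the steepest tissue difference of these genes in dP1 and pP, though not in dP2. It had a mean of 108 CPM in the NPIP of dP1 against 0.348 in the POP and 42.5 against 0.486 in pP. In dP2 the POP mean was 39.1 CPM beside 403 in the NPIP. DCAR_008493 lay at the other end, with 242 CPM in NPIP and 168 in POP of dP1. A high r here thus marks a near-linear relation of log2 CPM over the libraries and not a like size of difference.

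Between the chromosome 6 pair the identifiers run through 21 more genes. In each set 12 of them had enough reads to be tested, and 1 was higher in POP in every set, DCAR_019896, a NAC domain factor described as NAC100, beside 11.5%, 8.22% and 4.89% of all genes tested in dP1, dP2 and pP. NAC factors are plant transcription factors with roles in organ growth and stress responses, and this gene is in the block of factors the study lists as higher in POP, so its tissue difference is a description. Its log2FC of POP over NPIP was 4.23 (SE 0.90), 2.78 (SE 0.66) and 3.32 (SE 0.61) in dP1, dP2 and pP, from 3.34 to 14.5 CPM in the POP of dP1 against at most 0.779 in the NPIP. In dP1, DCAR_019897 (log2FC −0.62, SE 0.17) and DCAR_019902 (log2FC −0.70, SE 0.16) were lower, and no gene between the pair was lower in dP2 or pP. Of all genes tested, 7.41%, 3.66% and 1.35% were lower in dP1, dP2 and pP, so few were to be found among 12. The median log2FC of the 12 was 0.09, 0.03 and 0.16. The homologs at both ends of the stretch were chosen for being lower in POP, so their contrast with the genes between them is a description.

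**Figure D4:**
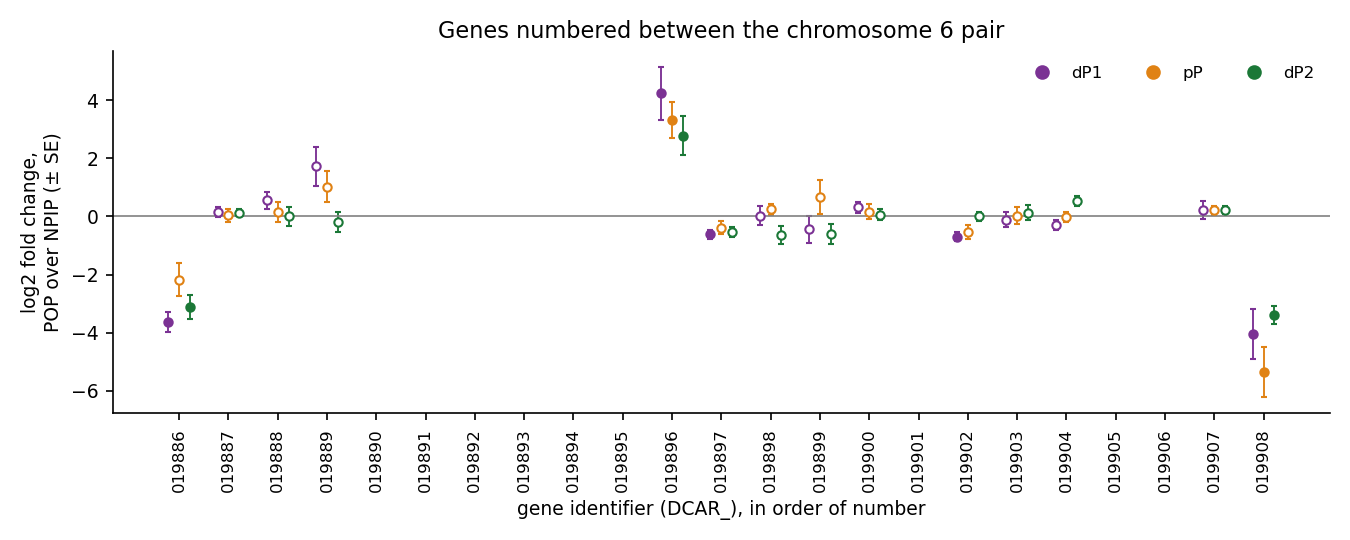
Log2 fold change of POP over NPIP, with SE, for the genes numbered from DCAR_019886 to DCAR_019908, in order of identifier and coloured by set. Filled points have an FDR under 0.05, and genes without a point had too few reads to be tested. The homologs at both ends lie between −2.17 and −5.35, DCAR_019896 lies between 2.78 and 4.23, and most others lie near 0.

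Other genes of vascular tissue were taken from the same tables, so that the homologs could be read beside them. DCAR_006979 matches DOF4.6, a DOF factor that in Arabidopsis is active in vascular tissue, DCAR_004549 matches bZIP9, which is active in Arabidopsis phloem, and DCAR_001474 matches AGL12, a MADS-box factor of the Arabidopsis root. They too come from the block of lower factors, so their tissue difference is a description. In POP over NPIP, 3 of the 3 were lower in dP1, 2 in dP2 and 3 in pP, beside 7.41%, 3.66% and 1.35% of all genes tested. AGL12 did not pass in dP2 (FDR 0.15). The medians of the 3 were −2.87, −2.74 and −2.82, beside 0.00, −0.03 and 0.00 over all genes tested. The other 12 factors of that block, these 3 among them, counted 12, 8 and 6 lower, beside the same shares of all genes tested.

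Of these 3, DOF4.6 had the largest differences between sets. It had 75.3, 71.7 and 92.2 CPM in the NPIP of dP2, 4.68, 11.8 and 8.92 in that of dP1 and 4.99, 3.47 and 2.43 in that of pP. The NPIP of dP2 was higher than that of dP1 by a log2FC of 3.23 (SE 0.43, FDR 5.97e-05) and than that of pP by 4.45 (SE 0.46, FDR 1.35e-05). For bZIP9 the same differences were 1.43 (SE 0.45, FDR 0.0187) and 2.15 (SE 0.46, FDR 0.0024). AGL12 did not pass in either, at −0.77 (SE 0.82, FDR 0.479) and 0.40 (SE 0.83, FDR 0.736), and its NPIP libraries of dP2 had 0.560, 23.4 and 4.20 CPM, while each homolog was at its highest in the same 3 libraries. Of the 12 factors of the block other than the homologs, 5 were higher and 2 lower in the NPIP of dP2 against either other set. DOF4.6 and bZIP9 are among those 5. Of all genes tested, 22.4% were higher and 18.9% lower against dP1, and 18.9% higher and 16.3% lower against pP.

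Secondary cell walls mark xylem and fibres, and the 2 genes of such walls followed here had the opposite sign between tissues. The study lists both genes below as higher in POP in these libraries, so their tissue difference is a description too. KNAT7 (DCAR_008430), a homeobox regulator of secondary walls, had a log2FC of POP over NPIP of 3.24 (SE 0.53) in dP1, 1.89 (SE 0.47) in dP2 and 2.58 (SE 0.43) in pP. IRX15-LIKE (DCAR_010869), which takes part in xylan synthesis, had 2.94 (SE 0.42) in dP2 and 3.36 (SE 0.94) in pP, where it did not pass (FDR 0.0891). In dP1 its 163 POP reads against 2 NPIP reads gave a ratio of CPM of 80.8, with an exact 95% interval from 22.01 to 673. In the NPIP of dP2 both were also above dP1, as DCAR_019886 and DCAR_009660 were, KNAT7 by a log2FC of 1.55 (SE 0.51, FDR 0.0242) and IRX15-LIKE with 81 reads against 2, a ratio of 37.2 with an exact 95% interval from 9.98 to 312 (FDR 0.00195). KNAT7 was higher there than in pP as well (log2FC 2.34, SE 0.53, FDR 0.00376), and IRX15-LIKE had 1.56 (SE 0.75, FDR 0.118). The part of tissue composition in the levels of the homologs was not tested.

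**Figure D5:**
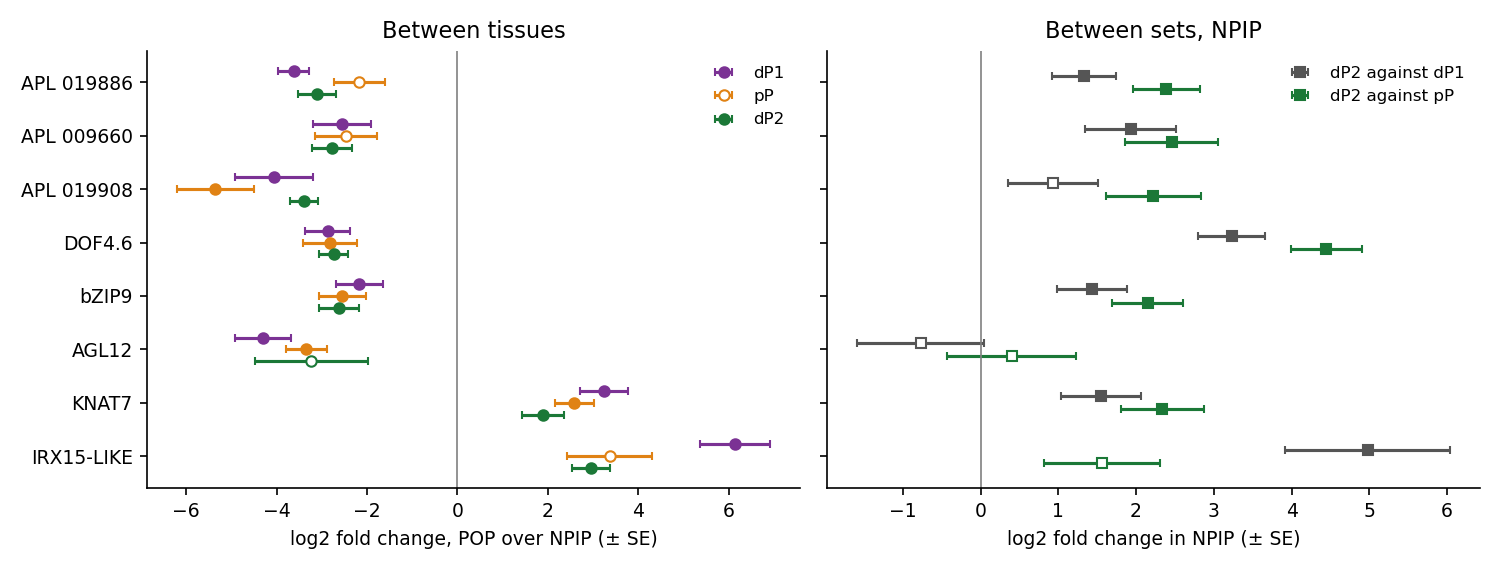
Log2 fold change, with SE, of the APL homologs, DOF4.6, bZIP9, AGL12, KNAT7 and IRX15-LIKE, at left for POP over NPIP in each set and at right for the NPIP of dP2 against the other sets. Filled points have an FDR under 0.05. The homologs, DOF4.6, bZIP9 and AGL12 lie left of 0 between tissues and the wall genes right of it, and in the right panel DOF4.6 has the largest difference from pP.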

How the data were processed

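RNA from POP and NPIP of the same roots was sequenced on a HiSeq instrument as single-end reads. The authors trimmed reads with Trimmomatic 0.32 and deposited RSEM expected counts, made with Bowtie2 on the V1.0 carrot annotation and not normalized. The TPM values were deposited by the authors in the same files and were used only to compare levels between genes. Strand was not given in the sources used here.

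After rounding, a gene entered a fit if 3 or more libraries reached 1 CPM. Libraries were scaled by TMM, and edgeR 4.0.16 (R 4.3.3) quasi-likelihood tests were run, with Benjamini-Hochberg FDR over all genes tested. POP was compared with NPIP in the 6 libraries of a set (17452, 18725 and 17616 genes in dP1, dP2 and pP). Sets, and differences of tissue effects, were compared in 1 fit of all 18 libraries (20253 genes). The SE is the log2FC divided by the square root of F. Common biological variation was 0.381 over the 18 libraries. The fits were tested on simulated data.

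Root pairs the tissues, as the study dissected both from each root. Deviations from group means of same-numbered libraries correlated at 0.346, 0.438 and 0.343 (dP1), 0.537, 0.315 and 0.399 (dP2), and −0.233, 0.573 and −0.094 (pP) for numbers 1, 2 and 3. In pP, POP replicate 1 went with NPIP replicate 3 (0.578).

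The homologs, lists and named genes (the homologs, the 5 genes most alike to each, described genes of the study's tables, the stretch of chromosome 6 and anthocyanin genes as a label check) were chosen with earlier results of these data known. Gene positions and descriptions come from the study's tables. Sieve element, companion cell and further xylem markers could not be matched to identifiers and are not analysed here. Alternatives were RLE size factors, DESeq2 1.42.0, the likelihood ratio test, other filters, root as a block, other sets of libraries in a fit, a prior count of 0.5, and each library left out.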

Additional observations from a re-analysis of the deposited data

How the results depend on the processing

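The count of homologs called moved under some alternatives. For POP against NPIP, without 1 library the count ranged from 1 to 3 in dP1 and from 0 to 1 in pP, where it became 3 in 1 fit of all 18 libraries, with the likelihood ratio test and with DESeq2. For NPIP of dP2 against dP1 it ranged from 0 to 2 without 1 library. For POP of dP2 against dP1 it became 2 with RLE size factors, the likelihood ratio test and DESeq2, and ranged from 1 to 3 without 1 library. For POP of dP2 against pP the count ranged from 1 to 3 without 1 library. In the 6 libraries compared alone, neither DCAR_019886 nor DCAR_009660 passed, and DCAR_019908 had too few reads to be tested. In the 11 alternatives that tested it, DCAR_019908 kept its call, with FDR of at most 0.0259. All of those fits held the NPIP libraries, where the gene is high. Its POP levels alone did not reach the filter, so the kept calls are not separate support. The NPIP of dP2 against pP kept 3 calls throughout. Root as a replicate block changed none of the 18 calls it was fitted for, with FDR of DCAR_019886 in pP at 0.127. In single genes, 437 of 492 values under the alternatives kept their direction and their side of the threshold, 25 lost the threshold, 12 gained it and 18 changed sign. Every change of sign came from leaving out 1 library in a comparison where the gene had not passed. For POP of dP1 against pP, the log2FC of DCAR_019886 ranged from −0.77 to 0.13 and that of DCAR_009660 from −0.54 to 0.84. For the change in tissue difference of dP1 against pP, DCAR_019908 ranged from −0.79 to 3.16 and DCAR_009660 from −1.07 to 0.32. For that of DCAR_009660, the range was −0.70 to 0.77 in dP2 against dP1 and −0.79 to 0.037 in dP2 against pP. With 1 library left out, a gene needed 1 CPM in at least 2 libraries in the fits of 1 set, and the tests have fewer samples. Depth limits the POP of dP1 and pP most, where DCAR_019908 had 8 reads and 1 read over 3 libraries.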
